A study of Mus musculus with 16 samples.

Results

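The mouse genes Dlg1, Dlg2, Dlg3 and Dlg4 encode the synaptic MAGUK scaffolds SAP97, PSD-93, SAP102 and PSD-95. Their transcripts were taken as all transcripts whose gene name was 1 of these 4, which gave 35 of the 80137 transcripts measured: 11 of Dlg1, 14 of Dlg2 and 10 of Dlg4. No transcript carried the name or identifier of Dlg3, so Dlg3 was not analysed here. RNA of the hippocampus, with both sides of a mouse pooled, was sequenced in 16 wild type C57BL/6 mice of 3 months, 1 total RNA library per mouse and 4 mice per group. Homecage (HC) mice had neither shocks nor escape trials. Control (Ctrl) mice had 30 escape trials at 0.4 mA and no inescapable shocks. Mice of the learned helpless group (LH) and of the non-learned helpless group (NLH) had 180 inescapable shocks of 0.4 mA, were given the same 30 trials 24 h later, and were told apart by a clustering of their escape failures and latencies. Tissue was taken 3 h after the trials. The Ctrl vs. HC comparison addressed handling and the test itself, and NLH vs. Ctrl the shocks in mice that still escaped. LH vs. NLH addressed helplessness, and LH vs. Ctrl the inescapable shocks and helplessness together, which cannot be told apart there. A failed trial ran its shock to the end, so LH and NLH mice also differed in the shock received during the trials.

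MAGUK scaffolds carry PDZ domains, an SH3 domain and a guanylate kinase-like domain that no longer acts as an enzyme. Their PDZ domains hold NMDA receptors, potassium channels, neuroligins and the TARP subunits of AMPA receptors at excitatory synapses, and palmitoylation of their N-terminal ends ties PSD-95 and PSD-93 to the membrane. PSD-95 is the most familiar protein of the postsynaptic density of the hippocampus, and its pre-mRNA is spliced so that a part of its transcripts is degraded by nonsense-mediated decay (NMD). The genes make alternative isoforms from different starts, some of which change the N-terminal end of the protein.

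Levels were in FPKM, that is, fragments of a transcript relative to its length and to the depth of the library. They summed to 120208 to 158004 in a mouse. The fragments per mouse were estimated at 19970000 to 38020000 from the steps between low values, on an assumed fragment length of 200 bases. They were 19970000 to 28010000 in LH, below every mouse of Ctrl (28560000 to 38020000) and HC (30950000 to 33900000). In NLH they were 26890000 to 37540000. LH mice 3 and 4 stood apart: 10846 and 15504 transcripts were listed at 0 in them, against 4872 to 7352 in the other 14 mice, and the correlation of log2 values between these 2 mice, 0.848, was the lowest within any group. The median SD of a gene was 0.36 on the log2 scale among LH mice, against 0.14 among Ctrl mice. For the gene sums, the isoform differences and the coding shares, the values that moved most without both mice are therefore given as well. The genes of the partner lists were compared over all mice alone. Neuron markers (Snap25, Syt1, Rbfox3, Slc17a7 and Gad1) summed to 538 to 722 FPKM in LH, against 559 to 611 in HC, 579 to 627 in Ctrl and 576 to 652 in NLH, and the 5 hippocampal subfield markers, of which Prox1 marks the dentate gyrus, were above 0 in all 16 mice. Their sum was 24.8 to 57.9 FPKM in LH mice, against 38.8 to 49.9 in HC, 41.4 to 48.9 in Ctrl and 38.9 to 54.5 in NLH.

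In the sum of its named transcripts, Dlg2 was the highest of the genes at 42.1 ± 5.90 FPKM (SD over 16 mice), Dlg4 followed at 35.1 ± 6.65 and Dlg1 at 12.3 ± 2.20. These levels lay above those of 98%, 97.5% and 89.3% of the 18287 gene names. Dlg1 was the lowest in every mouse. Dlg2 and Dlg4 did not differ beyond their spread in HC, at 38.5 ± 1.26 and 36.3 ± 5.60 FPKM, or in Ctrl, at 37.6 ± 2.17 and 37.5 ± 2.12. Dlg2 was above Dlg4 in 2 of 4 HC mice, 1 of 4 Ctrl mice, 4 of 4 NLH mice and 4 of 4 LH mice. The ratio of Dlg2 to Dlg4 was 0.989, 0.994, 0.961 and 1.06 in Ctrl mice 1 to 4, 1.38, 1.38, 1.3 and 1.21 in NLH mice and 1.17, 1.42, 1.25 and 2.71 in LH mice. Both shocked groups lay wholly above Ctrl in this ratio, while the HC mice, at 0.993, 1.13, 1.25 and 0.932, overlapped them. The ratio was formed after the values were seen and was not tested.

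The order of the levels depended on which transcripts were counted. Transcripts that the assembly placed at the same loci without a gene name, 6 for Dlg1, 16 for Dlg2 and 1 for Dlg4, were outside the sums. With them, Dlg4 reached 91.9 FPKM, Dlg2 74.7 and Dlg1 17.1, and Dlg4 was above Dlg2 in 15 of 16 mice. The single unnamed transcript at the Dlg4 locus alone held 56.8, 54.7, 54.6 and 57.3 FPKM in HC and 54.6, 77.3, 46.1 and 43.5 in LH, so the named Dlg4 transcripts were 38.2% of the FPKM of their locus. The named transcripts of Dlg2 were 56.3% and those of Dlg1 71.7%. On these fuller sums the ratio of Dlg2 to Dlg4 was 0.699 to 0.738 in Ctrl, 0.776 to 0.956 in NLH and 0.701 to 1.41 in LH, and LH overlapped Ctrl.

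**Figure D1:**
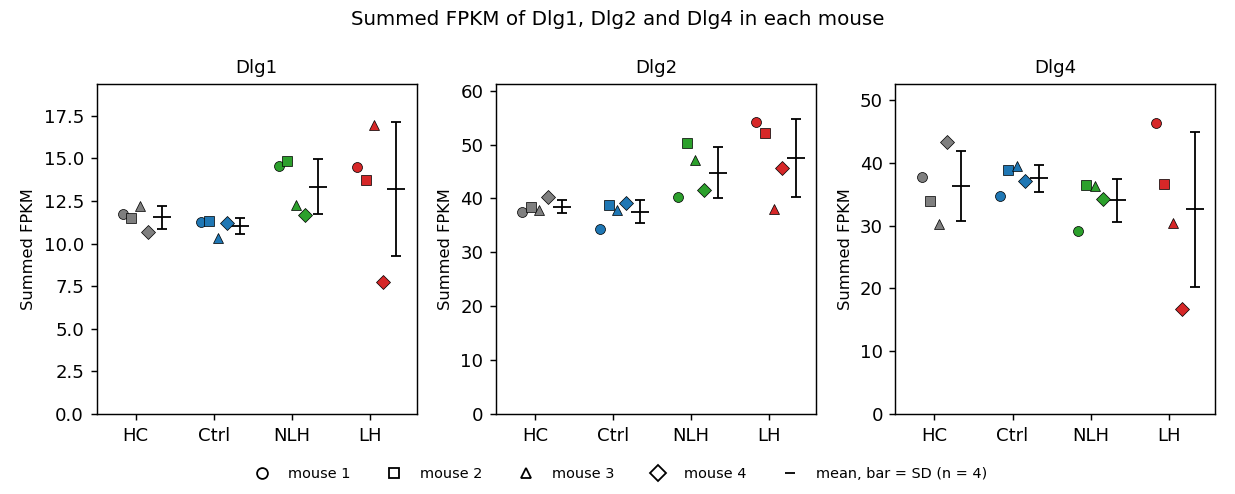
Summed FPKM of the named transcripts of Dlg1, Dlg2 and Dlg4 (vertical axes, from 0) in each of 4 mice of the HC, Ctrl, NLH and LH groups, with the group mean and SD beside the points. All 4 NLH mice lie above all 4 Ctrl mice for Dlg1 and Dlg2, and LH mouse 4 is the lowest LH mouse for Dlg1 and Dlg4.

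Dlg2, which encodes PSD-93, had higher means in both shocked groups than in Ctrl, without passing the adjusted test. It was at 37.6, 38.3, 37.8 and 40.3 FPKM in HC mice 1 to 4, 34.4, 38.7, 37.9 and 39.2 in Ctrl, 40.2, 50.4, 47.1 and 41.6 in NLH, and 54.1, 52.1, 38 and 45.6 in LH. Every NLH mouse was above every Ctrl mouse, and of the LH mice only mouse 3 fell within the range of Ctrl. How many of all gene names or transcripts separated in this way was not counted, so such separations, here and elsewhere, are description alone. The log2 difference was 0.33 ± 0.11 (SE) in LH vs. Ctrl (limma adjusted p = 0.262) and 0.25 ± 0.11 in NLH vs. Ctrl (limma adjusted p = 0.818), so neither passed the adjusted threshold of 0.05. LH vs. NLH gave 0.08 ± 0.11 (limma adjusted p = 0.891) and Ctrl vs. HC gave -0.04 ± 0.11 (limma adjusted p = 1). Leaving out LH mice 3 and 4 gave an LH vs. Ctrl difference of 0.50 (limma adjusted p = 0.0200) and an LH vs. NLH difference of 0.25 (limma adjusted p = 0.238). After scaling by median-ratio size factors, the LH vs. Ctrl difference was 0.40 (limma adjusted p = 0.0283) and that in LH vs. NLH 0.19 (limma adjusted p = 0.379). With the unnamed transcripts of the locus, the LH vs. Ctrl difference was 0.22 (limma adjusted p = 0.229), and in NLH vs. Ctrl it was 0.14 and no longer passed the unadjusted threshold (limma adjusted p = 0.916).

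Dlg4, which encodes PSD-95, was at 37.8, 33.9, 30.2 and 43.3 FPKM in HC, 34.8, 38.9, 39.4 and 37 in Ctrl, 29.1, 36.4, 36.3 and 34.3 in NLH, and 46.4, 36.7, 30.5 and 16.8 in LH. The LH mice held both the highest and the lowest value of all 16. The log2 difference was -0.29 ± 0.22 (SE) in LH vs. Ctrl (limma adjusted p = 0.643), -0.14 ± 0.22 in NLH vs. Ctrl (limma adjusted p = 1), -0.15 ± 0.22 in LH vs. NLH (limma adjusted p = 0.891) and 0.06 ± 0.22 in Ctrl vs. HC (limma adjusted p = 1). Leaving out LH mice 3 and 4 turned the first to 0.14 and LH vs. NLH to 0.28, so no direction can be given for Dlg4 in LH.

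Dlg1, which encodes SAP97, was at 11.8, 11.5, 12.2 and 10.7 FPKM in HC, 11.2, 11.3, 10.3 and 11.2 in Ctrl, 14.6, 14.9, 12.3 and 11.7 in NLH, and 14.5, 13.7, 17 and 7.72 in LH. Every NLH mouse was above every Ctrl mouse, and 3 of the 4 LH mice were as well. The log2 difference was 0.27 ± 0.18 (SE) in NLH vs. Ctrl (limma adjusted p = 0.982) and 0.21 ± 0.18 in LH vs. Ctrl (limma adjusted p = 0.695). LH vs. NLH gave -0.06 ± 0.18 (limma adjusted p = 0.958) and Ctrl vs. HC -0.06 ± 0.18 (limma adjusted p = 1). Leaving out LH mice 3 and 4 gave an LH vs. Ctrl difference of 0.35 (limma adjusted p = 0.0619), which passed the unadjusted threshold, and an LH vs. NLH difference of 0.09. Leaving out 1 LH mouse gave 0.07 (mouse 3, limma adjusted p = 0.917) to 0.44 (mouse 4, limma adjusted p = 0.0526) in LH vs. Ctrl, so single mice set the size of this difference. With the unnamed transcripts of the locus the difference was 0.30 in NLH vs. Ctrl (limma adjusted p = 0.714) and 0.37 in LH vs. Ctrl (limma adjusted p = 0.209), both past the unadjusted threshold.

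None of the 3 gene sums passed the adjusted threshold in any comparison. Over all gene names the share that passed was 0% in Ctrl vs. HC, 0.00547% in NLH vs. Ctrl, 0% in LH vs. Ctrl and 0.0109% between LH and NLH. At an unadjusted limma p under 0.05, Dlg2 was the only 1 of the 3 in NLH vs. Ctrl, where 5.59% of all gene names passed, and in LH vs. Ctrl, where 11.5% did. None of the 3 passed in Ctrl vs. HC, against 2.7% of all, or in LH vs. NLH, against 7.54%. These counts changed with the processing. With the unnamed transcripts of the loci, Dlg1 passed in NLH vs. Ctrl in place of Dlg2 (5.59% of all gene names), and both passed in LH vs. Ctrl (11.5%). Dlg1 also passed in NLH vs. Ctrl with the 8 mice alone (10.2% of all) and by the study's own test on unlogged FPKM (9.57%). It passed there without LH mouse 4 and without LH mice 3 and 4 (11.8% without both) as well. In these 2 settings it also passed in LH vs. Ctrl (24.3% without both). Dlg2 passed in LH vs. NLH with median-ratio size factors (12.5% of all) and without LH mice 3 and 4 (15.3%). It no longer passed in NLH vs. Ctrl without Ctrl mouse 1, Ctrl mouse 3, NLH mouse 2 or NLH mouse 3. Dlg4 passed in LH vs. Ctrl without LH mouse 1, at -0.49. For single mice left out, the share over all gene names is not given.

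Among the 35 isoforms, 1 differed in level at an unadjusted limma p under 0.05 in Ctrl vs. HC, against 3.45% of all 80137 transcripts. There were 3 in NLH vs. Ctrl, 2 higher and 1 lower, against 5.12%. In LH vs. Ctrl 5 differed (14.3%, against 10.7%), of which 3 were higher. Between LH and NLH 5 differed (14.3%, against 8.72%), of which 2 were higher. In the share of an isoform within its gene, 0, 3, 5 and 4 isoforms differed in these 4 comparisons, where 3.33%, 4.89%, 10.5% and 9.36% of 54197 isoforms did. After adjustment, 0 of the 35 passed in level in any comparison, where 0.00374%, 0.0125%, 0.0462% and 0.0412% of all transcripts did. In share, 1 isoform of Dlg2 passed, in LH vs. NLH, where 0.0461% of all isoforms did. None passed in share in Ctrl vs. HC, NLH vs. Ctrl or LH vs. Ctrl, where 0.00369%, 0.0111% and 0.0351% of all isoforms did. Beyond the isoforms described singly below, the share counts held Dlg2-212 (NLH vs. Ctrl, lower), Dlg2-216 (LH vs. Ctrl, lower) and Dlg4-203 (LH vs. Ctrl, higher), which are named after their values were seen. Each isoform difference over all 16 mice that is given below passed the unadjusted threshold, but few of these calls held in every alternative tried. Those of the Dlg2-208 level in LH vs. Ctrl and of the Dlg2-209 level in LH vs. NLH did. Those of Dlg2-206 held in all 23 that could be tried, since it was too low for the alternative limited to a mean FPKM of at least 1. The Dlg2-209 share in LH vs. NLH held in 7 of 24, and the levels of Dlg2-201 in NLH vs. Ctrl and of Dlg1-206 in LH vs. Ctrl in 10 of 24 each. The others held in 15 to 23 of 23 or 24. The counts among 35 isoforms were small, at most 5 in a comparison, and moved with the processing, as given in the last section. In level, NLH vs. Ctrl had 8 with the 8 mice alone (7.87% of all transcripts). In share, LH vs. Ctrl had 1 without LH mice 3 and 4 (8.81% of all isoforms).

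**Figure D2:**
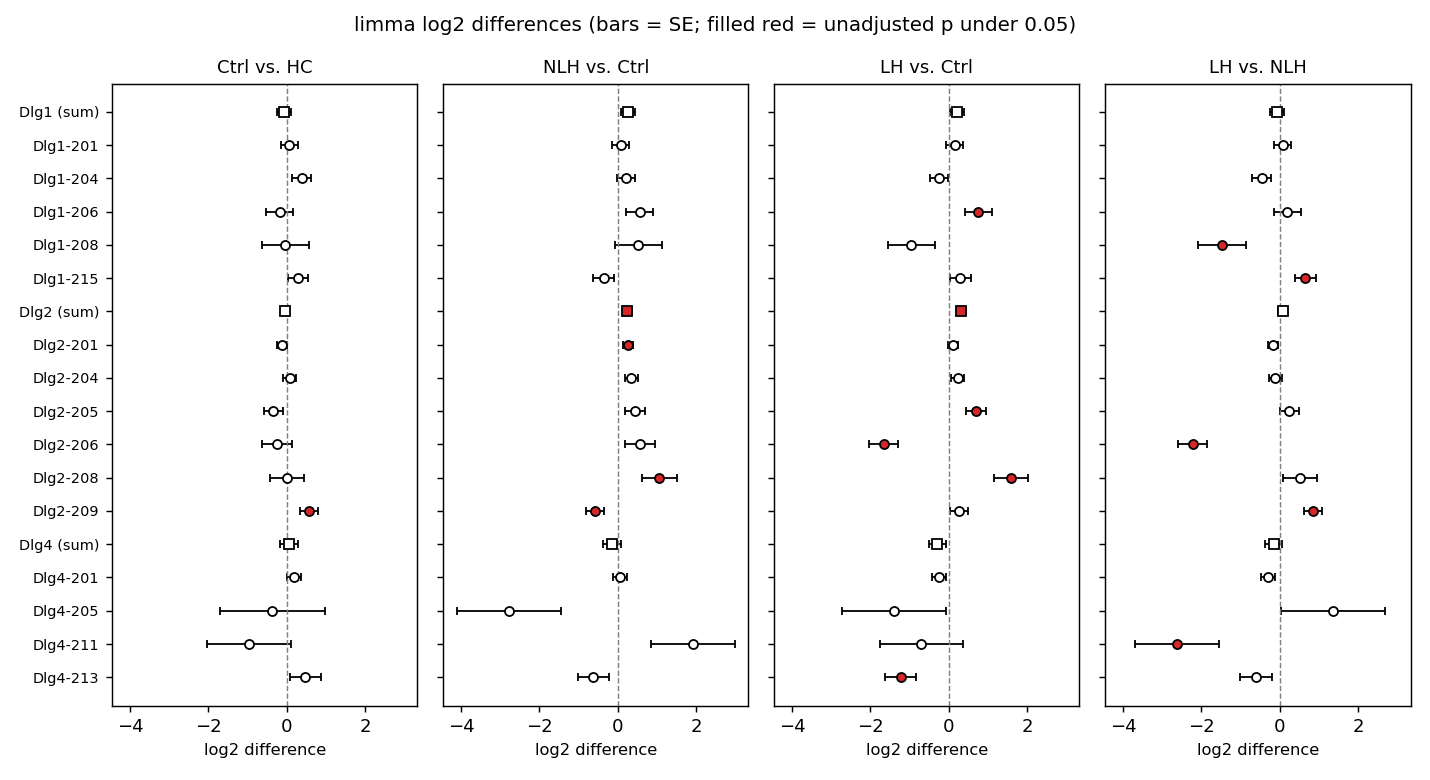
Log2 differences by limma (horizontal axes, bars are SE) of the gene sums (squares) and named isoforms (circles) of Dlg1, Dlg2 and Dlg4 in the 4 comparisons, filled where the unadjusted p was under 0.05. The Dlg2 sum is filled in NLH vs. Ctrl and LH vs. Ctrl, and Dlg2-206 lies farthest below 0 among the filled points of LH vs. Ctrl.

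Dlg2 lies on chromosome 7 from 90476672 to 92449247 of GRCm38 (the mm10 build), on the plus strand. Its 14 isoforms all had the same version in GENCODE vM21. Coding isoforms held 61.6% of its named FPKM, mostly Dlg2-204 (ENSMUST00000107196.9) with 41.6% and Dlg2-201 (ENSMUST00000074273.9) with 19.7%. Isoform shares and coding shares, throughout, are of the named transcripts, which held 56.3% of the FPKM of the Dlg2 locus. They were not recomputed with the unnamed transcripts. Isoforms annotated as processed transcripts, which have no annotated coding region, held 20.1% and those with a retained intron 18.2%. Dlg2-215 and Dlg2-216, at means of 0.156 and 0.0295 FPKM, were assigned by the authors' annotation to a separate gene identifier.

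Isoforms of Dlg2 began at several starts, and the 2 from which Dlg2-204, Dlg2-201, Dlg2-209 and Dlg2-208 arise are shown here with the 250 bases before each RefSeq start (RefSeq sequence of GRCm38.p6, plus strand, 5′ to 3′). Capitals mark matches to TATANA on either strand, a pattern searched because it resembles a TATA box. At least 1 match was present in 22.6% of 32817 promoters of the same length. Upstream start, chr7:91090536-91090785, with Dlg2-204, Dlg2-201 and Dlg2-209 starting within 300 bases of it, and downstream start, chr7:92234720-92234969, likewise with Dlg2-208, Dlg2-207 and Dlg2-214:
Dlg2 upstream start: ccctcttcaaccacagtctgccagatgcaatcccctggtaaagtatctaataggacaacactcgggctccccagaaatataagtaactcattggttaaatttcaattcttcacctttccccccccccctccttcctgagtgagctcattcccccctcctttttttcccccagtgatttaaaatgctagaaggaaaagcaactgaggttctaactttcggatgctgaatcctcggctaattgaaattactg
Dlg2 downstream start: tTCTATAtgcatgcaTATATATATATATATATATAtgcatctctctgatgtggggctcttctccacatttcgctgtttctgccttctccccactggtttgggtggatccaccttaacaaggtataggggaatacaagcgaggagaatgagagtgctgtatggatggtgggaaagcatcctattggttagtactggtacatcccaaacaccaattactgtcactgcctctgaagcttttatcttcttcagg
Dlg2-205, Dlg2-206, Dlg2-212 and Dlg2-216 start at neither. The upstream sequence held 0 matches and the downstream one 17 overlapping matches, in and beside a TA repeat near its 5′ end. Its GC content was 42.8% and that of the upstream one 45.2%, where the median of all promoters was 52.4%. The E-box CACGTG, the sequence TGACG of the CRE motif and the GC box GGGCGG, searched on both strands, were in neither, and were in 6.02%, 17.7% and 32.7% of all promoters.

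The isoforms from the upstream start summed to 24.3, 27.2, 27.5 and 26.5 FPKM in Ctrl mice, 28.1, 34, 34.4 and 28.9 in NLH and 34.1, 35.4, 25.8 and 27.8 in LH. Those from the downstream start summed to 3.93, 2.72, 3.46 and 2.12 FPKM in Ctrl, 6.75, 5.12, 5.5 and 3.24 in NLH and 9.86, 5.01, 5.33 and 5.62 in LH. The LH mice were all above the Ctrl mice at the downstream start and overlapped them at the upstream start. The means from the downstream start were 3.06 ± 0.797 FPKM in Ctrl and 6.45 ± 2.28 in LH.

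Dlg2-208 (ENSMUST00000138389.7, chromosome 7 from 92234923 to 92446484, 11 exons, a processed transcript) made up most of the downstream sum. It was at 2.2, 1.44, 2.45 and 0.723 FPKM in HC, 2.54, 1.15, 2 and 1 in Ctrl, 6.3, 3.23, 3.68 and 1.74 in NLH, and 8.01, 2.95, 5.1 and 4.81 in LH. Every LH mouse was above every Ctrl and HC mouse. The log2 difference in level was 1.59 ± 0.44 (SE) in LH vs. Ctrl (limma adjusted p = 0.209) and 1.07 ± 0.44 in NLH vs. Ctrl (limma adjusted p = 0.891). Its share of Dlg2 was 4.55 ± 2.24% in Ctrl (SD) and 11.1 ± 4.04% in LH, a log2 difference of 1.37 ± 0.54 (SE; limma adjusted p = 0.407). Without LH mice 3 and 4 the level difference was 1.58 (limma adjusted p = 0.231) and the share difference, at 1.17, no longer passed the unadjusted threshold. Dlg2-208 shared 90.6% of its 3218 bases with Dlg2-204 and had 57 bases that no other of the 14 named isoforms of Dlg2 holds. Its level thus rested largely on how shared fragments were divided between isoforms.

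Dlg2-206 (ENSMUST00000129818.1, chromosome 7 from 92180684 to 92288339, 2 exons, annotated with a retained intron) was the isoform whose share passed the adjusted test in LH vs. NLH, being lower in LH. It was at 0.427, 0.655, 0.306 and 0.549 FPKM in HC, 0.396, 0.48, 0.275 and 0.383 in Ctrl, 0.334, 0.683, 0.634 and 0.898 in NLH, and 0.146, 0.111, 0 and 0 in LH. Every LH mouse was below each of the other 12, and both values of 0 were in LH mice 3 and 4, which listed the most transcripts at 0. Its share of Dlg2 was 1.25 ± 0.38% (SD) in HC, 1.02 ± 0.23% in Ctrl, 1.42 ± 0.55% in NLH mice and 0.121 ± 0.14% in LH. The log2 difference in share was -2.32 ± 0.35 (SE) in LH vs. NLH (limma adjusted p = 0.0266), and in LH vs. Ctrl, where it was also lower, the limma adjusted p = 0.0745. In level it was -2.23 ± 0.38 in LH vs. NLH (limma adjusted p = 0.0551) and -1.66 ± 0.38 in LH vs. Ctrl (limma adjusted p = 0.139).

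The direction for Dlg2-206 was the same without LH mice 3 and 4, with a share difference of -1.90 in LH vs. NLH, and the adjusted call was lost (limma adjusted p = 0.143). With mice of the same number as a block the adjusted p of limma was 0.0555. The adjusted p was also above the threshold without LH mouse 3 (limma, 0.0575), LH mouse 4 (0.0605), NLH mouse 2 (0.0863), NLH mouse 3 (0.0653) or NLH mouse 4 (0.0598). It was also above the threshold with 0.01 FPKM added before the logarithm (difference -4.14, limma adjusted p = 0.0871), with 1 FPKM added (-0.71, limma adjusted p = 0.0951) and with the 8 mice of both groups alone (limma adjusted p = 0.24). By the study's equal-variance t-test, here run on the share in percent, the p was 0.00371 before and 0.661 after adjustment. The cutoff of the study was an unadjusted p under 0.05. The measured amounts were small: on the estimated depth, the FPKM of Dlg2-206 stood for 18.1 to 68.1 fragments in NLH, 18.2 to 36.8 in Ctrl and 0 to 8.26 in LH.

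Dlg2-209 (ENSMUST00000146563.8, from the upstream start to 92288935, 14 exons, also annotated with a retained intron) contained 83.4% of the bases of Dlg2-206. It was at 2.54, 1.37, 2.17 and 1.86 FPKM in HC, 3.35, 3.19, 2.75 and 2.49 in Ctrl, 2.85, 1.78, 1.64 and 1.59 in NLH, and 2.76, 2.95, 3.65 and 5.08 in LH. The NLH mice other than mouse 1 were below all Ctrl and LH mice. The log2 difference was 0.84 ± 0.23 (SE) in LH vs. NLH (limma adjusted p = 0.318), -0.59 ± 0.23 in NLH vs. Ctrl (limma adjusted p = 0.883) and 0.57 ± 0.23 in Ctrl vs. HC (limma adjusted p = 1). Leaving out LH mice 3 and 4, which held the highest LH values, gave 0.56 in LH vs. NLH (limma adjusted p = 0.437), and its share difference went from 0.82 to 0.32 and no longer passed the unadjusted threshold. In LH vs. NLH it thus lay on the other side of 0 from Dlg2-206, most of whose bases it holds. The sum of both was 3.19, 2.46, 2.27 and 2.49 FPKM in NLH and 2.91, 3.06, 3.65 and 5.08 in LH.

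**Figure D3:**
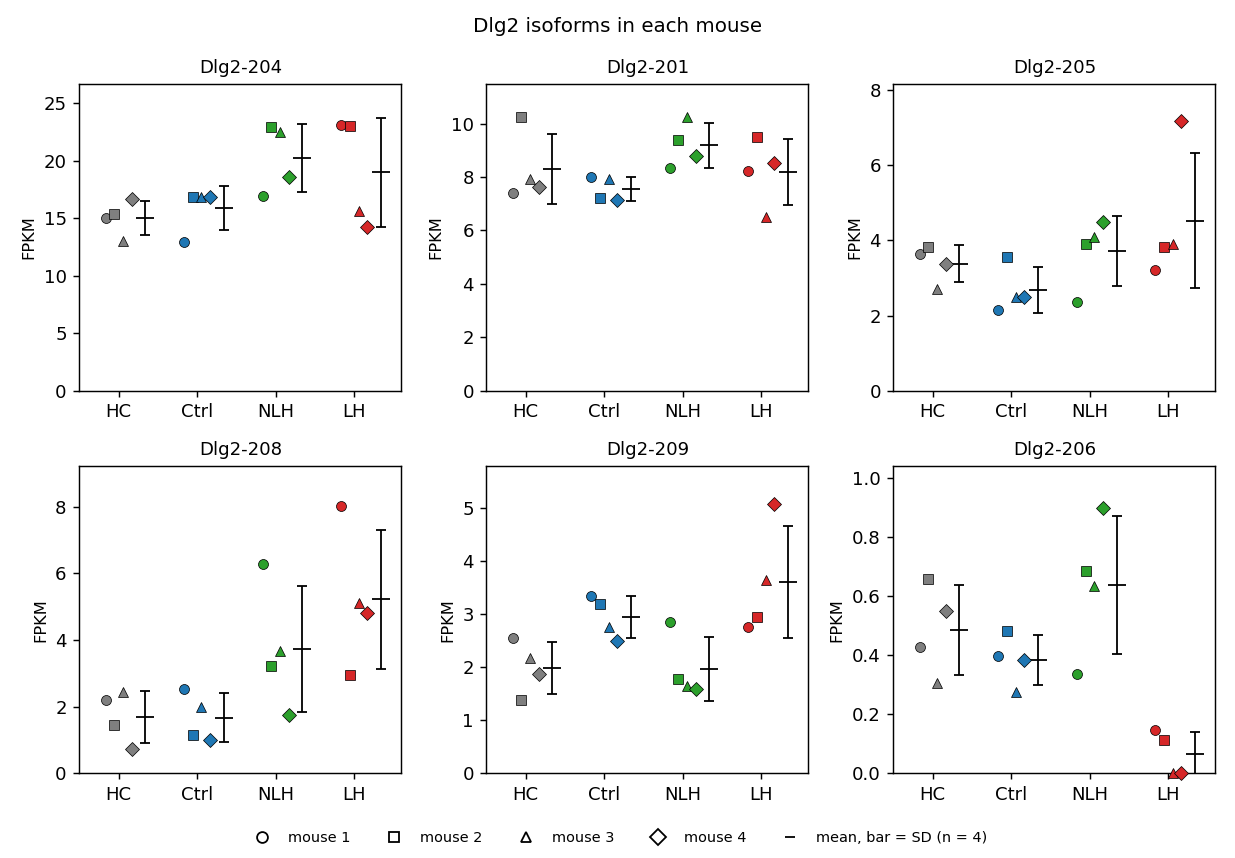
FPKM (vertical axes, from 0) of 6 Dlg2 isoforms in each mouse of the 4 groups, with the group mean and SD. The LH mice are all below the other 12 mice for Dlg2-206 and all above the Ctrl and HC mice for Dlg2-208.

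The main coding isoforms of Dlg2 followed the gene sum in NLH. Dlg2-204 was at 13, 16.8, 16.8 and 16.8 FPKM in Ctrl, 16.9, 22.9, 22.5 and 18.5 in NLH and 23.1, 23, 15.6 and 14.2 in LH. Dlg2-201 was at 7.99, 7.22, 7.91 and 7.13 FPKM in Ctrl, 8.32, 9.38, 10.3 and 8.79 in NLH and 8.22, 9.49, 6.50 and 8.53 in LH. For both, every NLH mouse was above every Ctrl mouse and the LH mice overlapped Ctrl. The log2 difference of Dlg2-201 in NLH vs. Ctrl was 0.27 ± 0.13 (SE; limma adjusted p = 0.976), and it no longer passed the unadjusted threshold with median-ratio size factors (0.23) or with the replicate number as a block. Dlg2-205 (ENSMUST00000128592.2), a processed transcript of 922 bases, was at 2.16, 3.56, 2.49 and 2.48 FPKM in Ctrl and 3.22, 3.82, 3.9 and 7.18 in LH, a log2 difference of 0.69 ± 0.25 (limma adjusted p = 0.346). Without LH mouse 4 it was 0.45 (limma adjusted p = 0.41) and without LH mice 3 and 4 it was 0.40 (limma adjusted p = 0.519), neither past the unadjusted threshold. The other 8 isoforms of Dlg2 ranged from means of 0.0295 to 2.39 FPKM.

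Dlg4 lies on chromosome 11 from 70016942 to 70047522, on the plus strand. Coding isoforms held 79.7% of its named FPKM and the NMD isoform Dlg4-205 (ENSMUST00000123687.1) 18.7%, with types taken from GENCODE vM21, in which 3 of its 10 isoforms had the same version. Dlg4-201 (ENSMUST00000018700.12) alone held 64%. It was at 22.3, 19.7, 17.4 and 24.6 FPKM in HC, 20.2, 22.2, 27.5 and 25 in Ctrl, 19.1, 29.6, 25.6 and 24.9 in NLH and 27.2, 20.2, 19.5 and 14.4 in LH, and all groups overlapped.

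The NMD isoform Dlg4-205 varied widely between mice. It was at 8.87, 9.83, 8.6 and 10.3 FPKM in HC, 8.63, 10.2, 5.32 and 5.94 in Ctrl, 0, 0.945, 5.37 and 2.27 in NLH and 14.8, 10.4, 3.77 and 0 in LH. In NLH, 3 of 4 mice were below all HC and Ctrl mice, and the LH mice spanned the whole range. Its share of Dlg4 was 20.2 ± 6.34% (SD) in Ctrl and 6 ± 6.46% in NLH, a log2 difference of -2.86 ± 1.25 (SE; limma adjusted p = 0.995). With 1 mouse left out it was -3.65 to -1.76, the latter without NLH mouse 1, and the unadjusted call held in 18 of 24 alternatives and was lost with 0.01 FPKM added. Dlg4-213 (ENSMUST00000143920.2), a coding isoform, was at 3.5, 1.94, 2.6 and 3.44 FPKM in Ctrl and 1.42, 2.06, 1.32 and 0.397 in LH. The groups overlapped, and the log2 difference was -1.23 ± 0.4 (limma adjusted p = 0.292). It was -0.79 without LH mouse 4 and, no longer past the unadjusted threshold, -0.68 without LH mice 3 and 4 (limma adjusted p = 0.44). Dlg4-211 (ENSMUST00000135916.8), a coding isoform of 404 bases, was at 4.04, 0.474, 0 and 0.506 FPKM in NLH and was listed at 0 or below 0.001 FPKM in all LH mice and in 3 of 4 Ctrl mice, so no fold is given (limma LH vs. NLH adjusted p = 0.517). The unadjusted call was lost without NLH mouse 1, the highest.

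**Figure D4:**
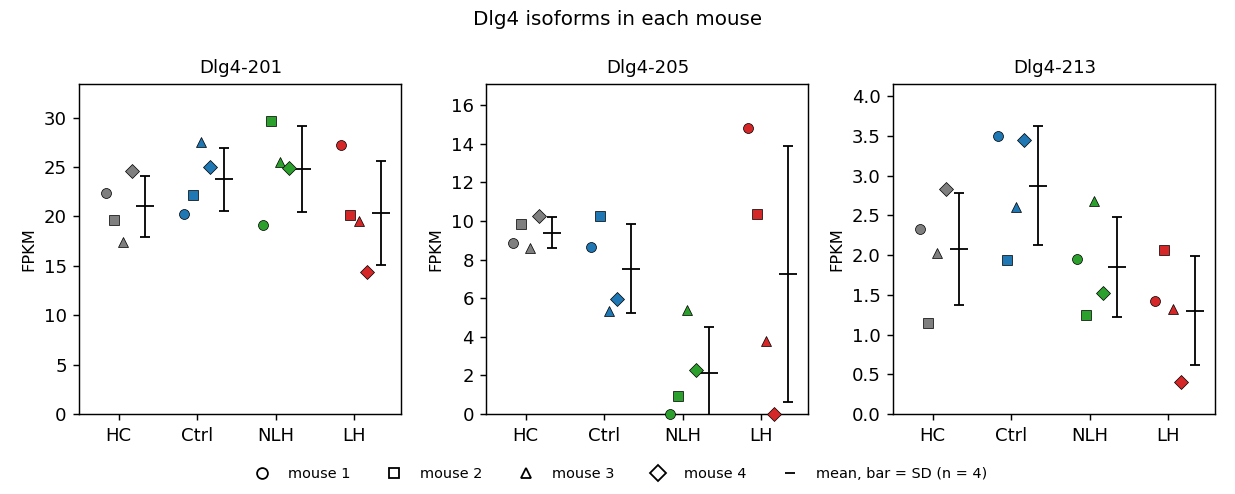
FPKM (vertical axes, from 0) of the coding isoforms Dlg4-201 and Dlg4-213 and the NMD isoform Dlg4-205 in each mouse of the 4 groups, with the group mean and SD. Dlg4-205 spans 0 to 14.8 FPKM in LH and lies below all HC and Ctrl mice in 3 of 4 NLH mice.

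Dlg1 lies on chromosome 16 from 31663443 to 31875129, on the plus strand. Coding isoforms held 77.3% of its named FPKM and isoforms with a retained intron 22.2%. Its highest isoform, Dlg1-201 (ENSMUST00000023454.11), held 37.5% and was at 4.49, 4.5, 4.08 and 4.44 FPKM in Ctrl, 3.82, 6.16, 4.36 and 4.43 in NLH and 5.85, 6.41, 5.47 and 2.76 in LH. The groups overlapped. Dlg1-204 (ENSMUST00000115196.7), which starts at 31754350 inside the gene, held 10.8% and also overlapped between groups, with means of 1.42 ± 0.38 FPKM (SD) in Ctrl and 1.19 ± 0.38 in LH. Dlg1-206 (ENSMUST00000115205.7), with 17.4%, was at 1.68, 1.4, 1.35 and 1.58 FPKM in Ctrl, 2.54, 2.04, 2.77 and 1.82 in NLH and 2.93, 1.31, 4.73 and 2.51 in LH. Its NLH mice were all above Ctrl, while LH mouse 2 was below all Ctrl mice, and the log2 difference in LH vs. Ctrl was 0.76 ± 0.34 (SE; limma adjusted p = 0.453). It was 0.48 without LH mouse 3 and 0.37 without LH mice 3 and 4 (limma adjusted p = 0.737), neither past the unadjusted threshold, and the call was also lost with the replicate number as a block.

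A pair of smaller Dlg1 isoforms differed in LH vs. NLH at an unadjusted p. Values under 0.001 FPKM are written as 0 here, as above. Dlg1-208 (ENSMUST00000131136.1), a coding fragment whose bases all lie within Dlg1-201, was at 0.727, 1.08, 0.44 and 0.607 FPKM in NLH and 0.694, 0.504, 0.0298 and 0 in LH, a log2 difference of -1.48 ± 0.61 (SE; limma adjusted p = 0.519). The low values were those of LH mice 3 and 4, and without both the difference was -0.17 (limma adjusted p = 0.949), which did not pass the unadjusted threshold. Dlg1-215 (ENSMUST00000155958.1), with a retained intron, was at 0.961, 0.551, 0.451 and 0.466 FPKM in NLH and 0.973, 0.714, 1.12 and 1.15 in LH, a log2 difference of 0.66 ± 0.26 (limma adjusted p = 0.513), and 0.46 without LH mice 3 and 4, where the unadjusted call was lost.

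The share of FPKM in protein coding isoforms was compared over 12 pairs of gene and comparison by exact two-sided permutation tests, in which 4 mice against 4 cannot give a p below 0.0286. For Dlg2 it was 60.9, 62.2, 65.5 and 61.1% in Ctrl, 62.7, 64.3, 70.3 and 65.7% in NLH and 58.8, 62.6, 58.2 and 50.1% in LH. Every LH mouse was below every NLH mouse, with a difference of -8.34 percentage points (exact permutation p = 0.0286, adjusted p = 0.343). Leaving out LH mice 3 and 4 it was -5.08 points (exact permutation p = 0.133), and 2 mice against 4 cannot give a p below 0.0667. For Dlg4 it was 74.2, 67.1, 86.5 and 84% in Ctrl and 95.8, 95.8, 85.2 and 90.4% in NLH, a difference of 13.9 percentage points (exact permutation p = 0.0571, adjusted p = 0.343). In LH it was 67.8, 71.1, 85.9 and 100%, so that LH mice 1, 2 and 3 lay within the Ctrl range and mouse 4 above it. The LH vs. Ctrl difference of Dlg4 was 3.23 points over all mice and -8.51 without LH mice 3 and 4, and its LH vs. NLH difference was -10.6 and -22.4 points (exact permutation p = 0.257 and 0.0667), so no direction can be given for Dlg4 in LH vs. Ctrl. The LH vs. Ctrl difference of Dlg2 was -5.00 points over all mice and -1.73 points without both. For Dlg1 it was 3.62 and 7.99 points, and its LH vs. NLH difference went from -0.0686 to 4.30 points. For Dlg1 the means were lowest in HC, at 73.6 ± 1.57%, and highest in NLH, at 80.1 ± 7.56% (SD). None of the 12 passed after adjustment, for which the smallest adjusted p was 0.343 by the exact permutation test, with 1 of the 12 under an unadjusted 0.05. A single test at the floor of 0.0286 cannot pass after adjustment over 12 tests, so this result was close to fixed by the design.

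**Figure D5:**
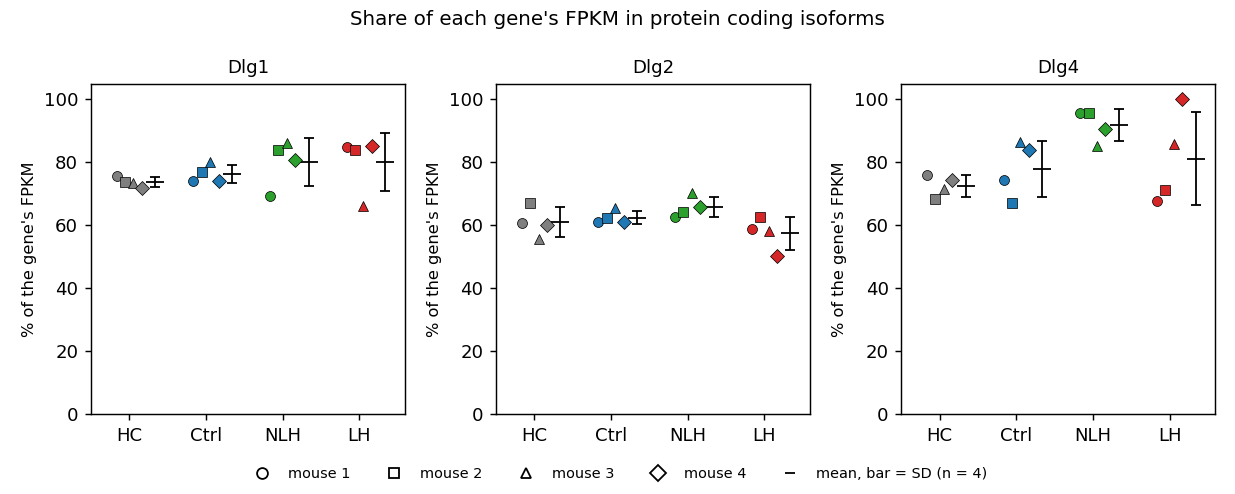
Percent of the summed FPKM of each gene's named transcripts in isoforms annotated as protein coding (vertical axes, from 0) in each mouse of the 4 groups, with the group mean and SD. For Dlg2 the LH mice all lie below the NLH mice, and for Dlg4 the LH mice span 67.8 to 100%.

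Genes that work with these scaffolds were described from 4 lists, of which 61 of 66 genes had a row. In LH vs. Ctrl 8 of the 61 (13.1%) had an unadjusted limma p under 0.05, 6 higher and 2 lower, beside 11.5% of all gene names. In NLH vs. Ctrl there were 4 (6.56%, beside 5.59%), in LH vs. NLH 3 (4.92%, beside 7.54%) and in Ctrl vs. HC 1 (1.64%, beside 2.7%), and 0 passed the adjusted threshold in any of the 4. Their median log2 difference in LH vs. Ctrl was -0.01, beside 0 over all gene names, and in LH vs. NLH -0.05, beside -0.06.

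Of 12 other MAGUK genes, 2 were higher at that p in LH vs. Ctrl and none lower. Mpp7, a junctional MAGUK, was at 0.773 ± 0.28 FPKM (SD) in LH and 0.395 ± 0.083 in Ctrl, a log2 difference of 0.77 ± 0.3 (SE; limma adjusted p = 0.327). Mpp5, which encodes the polarity scaffold PALS1, was at 4.71 ± 0.81 FPKM in LH and 3.26 ± 0.45 in Ctrl (limma adjusted p = 0.337). In LH vs. NLH, Mpp7 was higher by 0.85 on the log2 scale (limma adjusted p = 0.531) and Mpp6 differed by -0.50 (limma adjusted p = 0.59), both at an unadjusted p under 0.05.

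Of 16 postsynaptic density scaffolds, 1 passed the unadjusted p in LH vs. Ctrl. This was Homer1, which links group I metabotropic glutamate receptors to Shank proteins, at 26.9 ± 3.55 FPKM (SD) in LH and 21.6 ± 1.02 in Ctrl (log2 difference 0.31 ± 0.11 (SE), limma adjusted p = 0.29). Dlgap1, whose protein binds the guanylate kinase-like domain of PSD-95, was at 82.3 ± 12.4 FPKM in LH and 93.4 ± 4.01 in Ctrl (limma adjusted p = 0.479). None passed it in LH vs. NLH, where the smallest were those of Homer3 (limma adjusted p = 0.678) and Homer1 (limma adjusted p = 0.717).

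Of 22 membrane proteins bound by the PDZ domains or in complex with them, 1 was higher and 1 lower in LH vs. Ctrl at the unadjusted p, and none passed after adjustment. Lrrtm2, a synaptic adhesion protein that binds neurexins, was at 10 ± 1.61 FPKM (SD) in LH, 6.68 ± 0.35 in Ctrl and 6.58 ± 1.87 in NLH. Its log2 difference was 0.57 ± 0.17 (SE) in LH vs. Ctrl (limma adjusted p = 0.209) and 0.62 ± 0.17 in LH vs. NLH (limma adjusted p = 0.374). Cacng8, a TARP subunit of AMPA receptors, was at 3.55 ± 1.57 FPKM in LH and 5.57 ± 1.08 in Ctrl (log2 difference -0.71 ± 0.26, limma adjusted p = 0.309), and at 4.99 ± 1.24 in NLH (limma LH vs. NLH adjusted p = 0.68).

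Of 11 enzymes that modify these scaffolds, 2 were higher and 1 lower in LH vs. Ctrl at the unadjusted p. The 2 with the smallest p, both higher, are named by the rule set for each list, and the lower 1 is not. Abhd17b, a depalmitoylase of PSD-95, was at 7.48 ± 0.6 FPKM (SD) in LH and 5.72 ± 0.45 in Ctrl (limma adjusted p = 0.305). Zdhhc2, a palmitoyl transferase for PSD-95, was at 9.24 ± 1.5 FPKM in LH and 7.34 ± 1.11 in Ctrl (limma adjusted p = 0.357). In LH vs. NLH none passed, and the smallest were those of Abhd17b (limma adjusted p = 0.68) and Cdk5, a kinase of PSD-95 (limma adjusted p = 0.703).

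The genes whose log2 sums were most like those of each scaffold over the 16 mice were named from 10435 gene names with a mean of at least 1 FPKM, as a description without a test. For Dlg2 they were Dync1li1 (Pearson r = 0.949), Palmd (0.948) and Wdr35 (0.939), for Dlg4 Bola2 (0.968), Zfp787 (0.962) and Pex26 (0.948), and for Dlg1 Commd6 (0.902), Nceh1 (0.899) and Kdm1a (0.887). The 16 points share groups and library properties, among them the low values of LH mouse 4 for Dlg1 and Dlg4.

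Markers of other cells and of neighbouring tissue were compared beside these values, whose part in the results was not tested. The 4 astrocyte markers summed to 84.6 to 142 FPKM in LH and 112 to 128 in Ctrl, and 3 oligodendrocyte markers to 174 to 357 in LH and 226 to 307 in Ctrl. The 4 microglia markers summed to 17.3 to 27.9 FPKM in LH and 21.7 to 24.7 in Ctrl, and 2 endothelial markers to 3.8 to 11.8 in LH and 3.6 to 4.49 in Ctrl. The endothelial sum was 4.8 to 5.61 FPKM in NLH, wholly above Ctrl, and 2.63 to 4.7 in HC. In the other lists NLH overlapped Ctrl. The 4 striatal markers summed to 1.93 to 4.8 FPKM in LH and 2.81 to 3.09 in Ctrl, and the 4 choroid plexus markers to 1.45 to 72.9 in LH and 12.4 to 42.2 in Ctrl. The 3 red blood cell markers summed to 141 to 450 FPKM in LH and 214 to 303 in Ctrl, so the range was wider in LH than in Ctrl for each of these lists. Of the single markers, Wfs1 (subfield CA1) ranged from 0.00225 to 4.71 FPKM over the 16 mice, and Flt1 (endothelium) from 1.43 to 10.6. No marker was at 0 in more than 1 mouse. In whole hippocampus, fewer cells of a type and less RNA per cell cannot be told apart.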

How the data were processed

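RNA of the hippocampus of 16 mice was analysed as FPKM per transcript, as deposited by the authors. The authors' methods name HISAT2 for alignment, while their processing notes name STAR 2.42a; both give mm10, StringTie 1.2.3 assembly and Cufflinks quantification, which divides shared fragments between isoforms. All columns matched a sample (0 unmatched). Groups came from the sample group given in the labels, and columns were matched by the sample titles.

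FPKM was summed by gene name. log2(FPKM + 0.1) of 18287 gene names and 80137 transcripts, and the log2 ratio of an isoform to the rest of its gene (54197 isoforms), were fitted with limma 3.58.1 (R 4.3.3; 4 group means, all 16 mice, trend and robust), with Benjamini-Hochberg adjustment over all features of a fit. Fold changes on this scale understate those of low transcripts. Coding shares were compared by exact two-sided permutation tests over 12 pairs, since Dlg3 could not be included. Isoform types and positions came from GENCODE vM21 and promoters from RefSeq. Named isoforms were those holding at least 10% of their gene and, by rank of the unadjusted limma p, others under 0.05 at a mean of at least 0.1 FPKM in either group, at most 8. Named list genes were the 2 with the smallest p per list in each comparison of LH. The members and lists were chosen with earlier results of these data known. The labels do not say that mice of a number were paired: deviations of same-numbered mice correlated at a median of -0.023 over 24 pairs, so the numbers were not used to pair them. P-values measure the spread between mice. In limma this was 1 estimate per feature, pooled over the 4 groups, so a feature had the same SE in every comparison of all 16 mice. For the Dlg4 sum this SE was 0.22. With the 8 mice of a comparison alone it was 0.10 in Ctrl vs. HC and 0.27 in LH vs. Ctrl. Intervals of counting error were not formed, since FPKM gives no counts, and the depth is an estimate. The scripts were tested on simulated data. Python 3.11.15, numpy 2.4.6, pandas 2.3.3, scipy 1.17.1 and matplotlib 3.10.9 were used.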

Additional observations from a re-analysis of the deposited data

Results flagged for a closer look

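Of 84 groups of 4 mice, 7 held a mouse whose gap to the nearest of the others was unusually large for the range of its group, where chance gives about 1 in 20. The Dlg1 sum was 10.3 FPKM in Ctrl mouse 3 and 11.2 to 11.3 in the others, and Dlg1-201 was 4.08 FPKM in the same mouse and 4.44 to 4.50 in the others. Dlg2-204 was 13.0 FPKM in Ctrl mouse 1 and 16.8 in the others, and Dlg2-209 was 2.85 FPKM in NLH mouse 1 and 1.59 to 1.78 in the others. Dlg4-211 was 0.594 FPKM in Ctrl mouse 3 and 0 in the others, and 4.04 FPKM in NLH mouse 1 and 0 to 0.506 in the others. The share of Dlg1 in protein coding isoforms was 66.2% in LH mouse 3 and 83.8 to 85.1% in the others.

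The share of Dlg2-206 within Dlg2 differed between LH and NLH by -2.32 on the log2 scale, which is also the difference between their effects against Ctrl (limma adjusted p = 0.0266). The call is lost under the alternatives given with the result, among them both other values added before the logarithm.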

How the results depend on the processing

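The gene sum of Dlg1 in LH vs. NLH (-0.06 on the log2 scale) was 0.0562 with median-ratio size factors, 0.0853 without LH mice 3 and 4 and 0.0719 with unnamed transcripts of the locus, an alternative chosen after seeing the data, and -0.20 to 0.17 with 1 mouse left out. Dlg2 in LH vs. Ctrl was 0.40 with median-ratio size factors and 0.50 without LH mice 3 and 4, both past the adjusted threshold. Without LH mice 3 and 4, Dlg4 was 0.14 in LH vs. Ctrl and 0.28 against NLH. With 1 mouse left out, Dlg2 in Ctrl vs. HC ranged from -0.0588 to 0.00416, Dlg4 in Ctrl vs. HC from -0.0243 to 0.15 and Dlg4 in LH vs. NLH from -0.35 to 0.14, the last turning without LH mouse 4. The number of isoforms under an unadjusted 0.05 in level was 0 (median-ratio) and 2 (without LH mice 3 and 4) in Ctrl vs. HC, where 3.62% and 5.73% of all transcripts passed in the same settings, and with 1 mouse left out 0 to 3. In NLH vs. Ctrl it was 8 (only the 8 mice compared), 7 (the study's own test on unlogged FPKM) and 8 (without LH mice 3 and 4), where the share of all transcripts was also higher, at 7.87%, 7.2% and 8.36% against 5.12%, and 1 to 7. It was 3 (study's test, 7.69% of all) in LH vs. Ctrl. Between LH and NLH it was 1 of 16 (mean FPKM of at least 1, 9.98% of all) and 3 (study's test, 4.47%), and 4 to 9. In share, the study's test was run on the percent of the gene. The number was 1 (study's test, 5.32%) in Ctrl vs. HC, and 0 to 1, and 1 (0.01 added, 4.43%) in NLH vs. Ctrl, and 0 to 4. In LH vs. Ctrl it was 3 of 16 (mean of at least 1, 14.7%), 3 (8 mice, 7.26%), 3 (study's test, 7.1%) and 1 (without LH mice 3 and 4, 8.81%), and 1 to 6. In LH vs. NLH it was 1, 2 and 2 in the first 3 of these settings (12%, 5.43% and 5.04%), and 2 to 5. The coding share of Dlg1 in LH vs. NLH (-0.0686 percentage points) was 0.0152 with isoforms of at least 0.1 FPKM and -3.68 to 4.53 with 1 mouse left out. That of Dlg2 in Ctrl vs. HC ranged from -0.271 to 3.57 and that of Dlg4 in LH vs. Ctrl from -3.04 to 7.69. With a block for the replicate number, which does not pair these mice, the counts were 1, 2, 4 and 5 in level (3.42%, 5.11%, 10.3% and 8.51% of all) and 0, 4, 6 and 3 in share (3.31%, 4.8%, 10.1% and 8.96%), and Dlg2-206 lost its adjusted call (limma adjusted p = 0.0555). Causes were not tested. The low level of many isoforms and the spread among LH mice limit what these data can show.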
